A study of Mus musculus with 20 samples.

Results

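The genes described here are 10 death effectors that the transcription factor p53 is known to induce, chosen by their symbols: Bax, Bbc3, Pmaip1, Fas, Tnfrsf10b, Perp, Aen, Trp53inp1, Phlda3 and Apaf1. Of the 10, 8 were among the 13107 genes listed for the Myc experiment, and 8 were among the 11210 genes listed for the hydroxyurea (HU) experiment. The same 8 genes were listed in both, and Pmaip1 and Perp were not analysed here. Their RNA levels were read by RNA-seq in p19/Nras, a mouse liver cancer line. All groups thus share the loss of p19/Arf and the Nras oncogene of that line. In the Myc experiment, Trim33-WT cells (sgCtrl) and a pair of CRISPR lines (sgTrim33, Trim33-KO1 and Trim33-KO2) carried the Ctrl vector pWZL or a Myc vector, giving 6 groups of 2 libraries each. The HU experiment held Trim33-WT and Trim33-KO cells (KO line not named by the labels), each without treatment or with 1 mM HU for 4 h, giving 4 groups of 2 libraries. Each genotype was 1 cell line, and the labels do not state that replicate libraries came from separate cultures, so that p-values measure the spread between libraries, which may be technical. Libraries of the Myc experiment held 14753177 to 17949430 counts, and those of the HU experiment 2315327 to 3082202, which left low genes such as Fas with wider counting error in the latter.

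The labels were checked against the counts. Trim33 in the HU experiment was 141 and 127 CPM (counts scaled by the library total) in WT untreated and 49.9 and 43.0 CPM in KO untreated libraries, lower in KO as labelled. With the Ctrl vector Trim33 was 236 and 247 CPM in WT, 122 and 130 CPM in KO1, and 204 and 210 CPM in KO2. With the Myc vector it was 132 and 158 CPM in the libraries labelled WT and 186 and 195 CPM in those labelled KO1, the reverse of the order with the Ctrl vector. The paper showed Trim33 protein of WT and KO lines by immunoblot, whereas RNA was read here, so RNA alone does not settle a label. Myc itself was 415 and 421 CPM in WT Ctrl and 461 and 466 CPM in WT Myc, and this difference was not called. In the lines Myc did rise with its vector, from 185 and 196 to 624 and 655 CPM in KO1 (log2 fold change 1.73, adjusted p 1.2e-12) and from 213 and 222 to 462 and 503 CPM in KO2 (1.16, adjusted p 9.14e-11). Trim33 was 125 and 126 CPM in KO2 Myc libraries, and its log2 difference from WT Myc was -0.20 (adjusted p 0.0263), short of the threshold of 0.01. Trim33 in KO1 Myc libraries stood nearer KO2 Ctrl than KO1 Ctrl libraries, and in KO2 Myc libraries nearer KO1 Ctrl. Whether KO1 and KO2 name the same lines with both vectors was not tested. The groups with the Myc vector are therefore named only as labelled, and directions drawn from them carry that limit. Of 10 hepatocyte markers only Afp, Krt8 and Krt18 were listed, and Alb and Hnf4a were not. Of 6 fibroblast markers, 5 were listed for the Myc experiment and 3 for the HU experiment, with Thy1 in neither, while Cd68 was the only one of 6 immune markers listed and 0 of 6 endothelial markers were. The summed fibroblast markers paired the lines as Trim33 did, at 716 to 789 CPM in KO1 Ctrl and 725 to 738 CPM in KO2 Myc libraries. They were 183 to 201 CPM in KO2 Ctrl and 107 to 117 CPM in KO1 Myc libraries. Cdkn2a, the locus of p19/Arf, which also makes p16, was between 16.1 and 31.3 CPM in the Myc experiment, and counts per gene cannot separate its transcripts.

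p53 is a transcription factor that accumulates after DNA damage or stalled replication and binds sites made of a pair of half-sites. Its death targets act at several points. Bax and Bbc3 (Puma) belong to the Bcl2 family, with Bax opening the outer mitochondrial membrane and Bbc3 releasing Bax from its inhibitors, and Apaf1 builds the apoptosome on released cytochrome c. Fas and Tnfrsf10b are death receptors at the cell surface. Aen is an exonuclease of apoptotic DNA, Trp53inp1 is a cofactor of p53 in stress, and Phlda3 inhibits Akt at the membrane. HU depletes deoxynucleotides and stalls replication forks. Myc drives growth and can prime cells for death, and Trim33 is a chromatin-bound ubiquitin ligase.

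The closest match to a p53 site within 5000 bases of each start site (mm9, GENCODE vM1) is shown for the 3 members with the largest response to HU (Trp53inp1, Bbc3 and Fas) and the 2 called between KO and WT cells in that experiment (Bax and Aen). Each is read 5′ to 3′ as a pair of half-sites of 10 bases with 0 or 1 base between them, and capitals mark the CNNG core of each half-site. The limit of 1 base was set after matches had been seen.
Trp53inp1: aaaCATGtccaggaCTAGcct
Bbc3: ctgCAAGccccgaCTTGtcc
Fas: gggCATGtacaaaCATGtca
Bax: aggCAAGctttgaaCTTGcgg
Aen: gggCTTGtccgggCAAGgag
The Trp53inp1 sequence (chr4:11082259-11082279, plus strand, position -1319 from the start, outside the gene) had 0 mismatches, and 0.586% of 9556 such windows around protein-coding genes of the HU experiment held a match as close. Fas (chr19:34366854-34366873, plus strand, position 1705, intron) and Bax (chr7:52722449-52722469, minus strand, position -201, outside the gene) each had 2 mismatches, as close as 25% of windows. Bbc3 (chr7:16894835-16894854, plus strand, position -130, outside the gene) and Aen (chr7:86040823-86040842, plus strand, position 10, exon) each had 3 mismatches, as close as 68.3% of windows. The closest matches of Phlda3, Apaf1 and Tnfrsf10b had 2, 3 and 4 mismatches. The Trp53inp1 match was thus rare among windows, and those of Bbc3 and Aen were not. A match is a description of the letters and says nothing of binding.

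**Figure D1:**
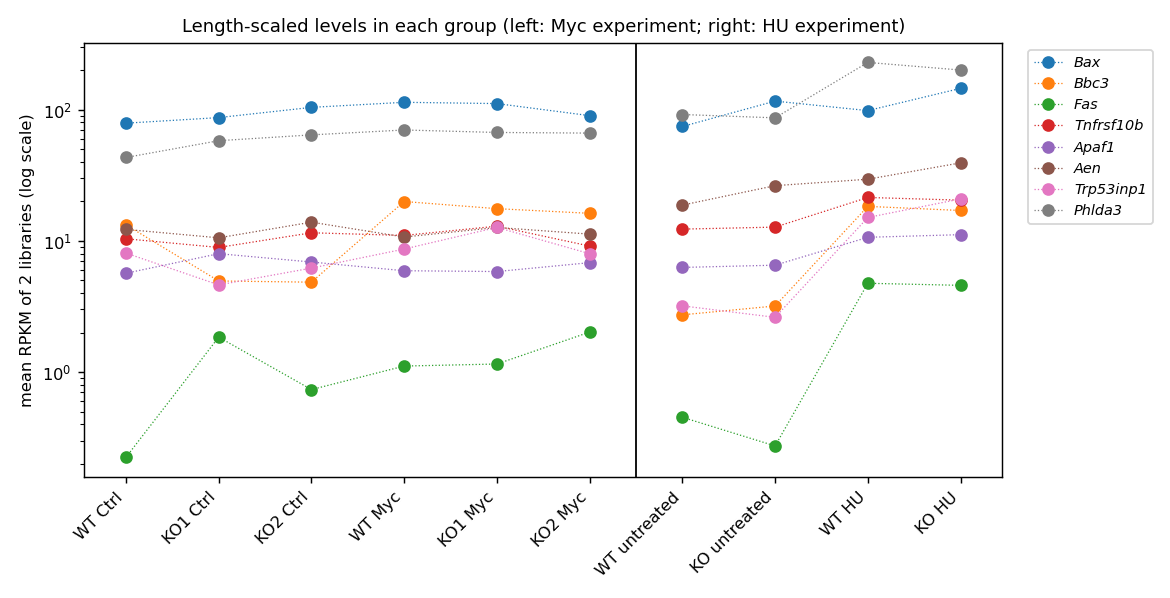
Mean RPKM of each gene (2 libraries a group, log axis) in the 10 groups, with the Myc experiment to the left of the line and the HU experiment to the right. Dotted lines only link points of the same gene. Bax and Phlda3 hold the upper places and Fas the lowest in every group.

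Levels between genes were compared per length of exon, as RPKM. Bax and Phlda3 held the highest levels in all 10 groups and Fas the lowest. In WT Ctrl cells Bax was at 79.0 ± 1.74 RPKM (SD, n = 2), Phlda3 at 43.3 ± 1.53, Bbc3 at 13.3 ± 0.0767, Aen at 12.2 ± 0.688, Tnfrsf10b at 10.4 ± 0.981, Trp53inp1 at 8.07 ± 0.684, Apaf1 at 5.67 ± 0.170 and Fas at 0.224 ± 0.162. No neighbours in that order overlapped between libraries. In WT untreated cells of the HU experiment the order was Phlda3 (92.0 RPKM), Bax (74.5), Aen (18.7), Tnfrsf10b (12.3), Apaf1 (6.28), Trp53inp1 (3.20), Bbc3 (2.73) and Fas (0.452). There Phlda3 and Bax overlapped, as did Trp53inp1 and Bbc3. The highest member was 203-fold above the lowest in WT untreated cells and 48.3-fold above it in WT HU cells. The tables were normalized separately, so levels were not tested across them.

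HU raised most of these effectors in both genotypes. In Trim33-WT cells 7 of the 8 rose at an adjusted p below 0.05 (edgeR's quasi-likelihood test with Benjamini-Hochberg adjustment over all genes), beside 6.39% of all genes that were called higher and 9.83% called in either direction. Trim33-KO cells also had 7 of 8 that rose, beside 4.65% of all genes called higher and 6.45% in either direction. Bax was the exception in both. The median log2 fold change of the 8 genes was 1.05 in WT and 0.99 in KO cells, where that of all genes was 0 and -0.01. CPM of all 8 genes did not overlap between HU and untreated libraries in either genotype, beside 50.7% of all genes in WT and 44.9% in KO cells.

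**Figure D2:**
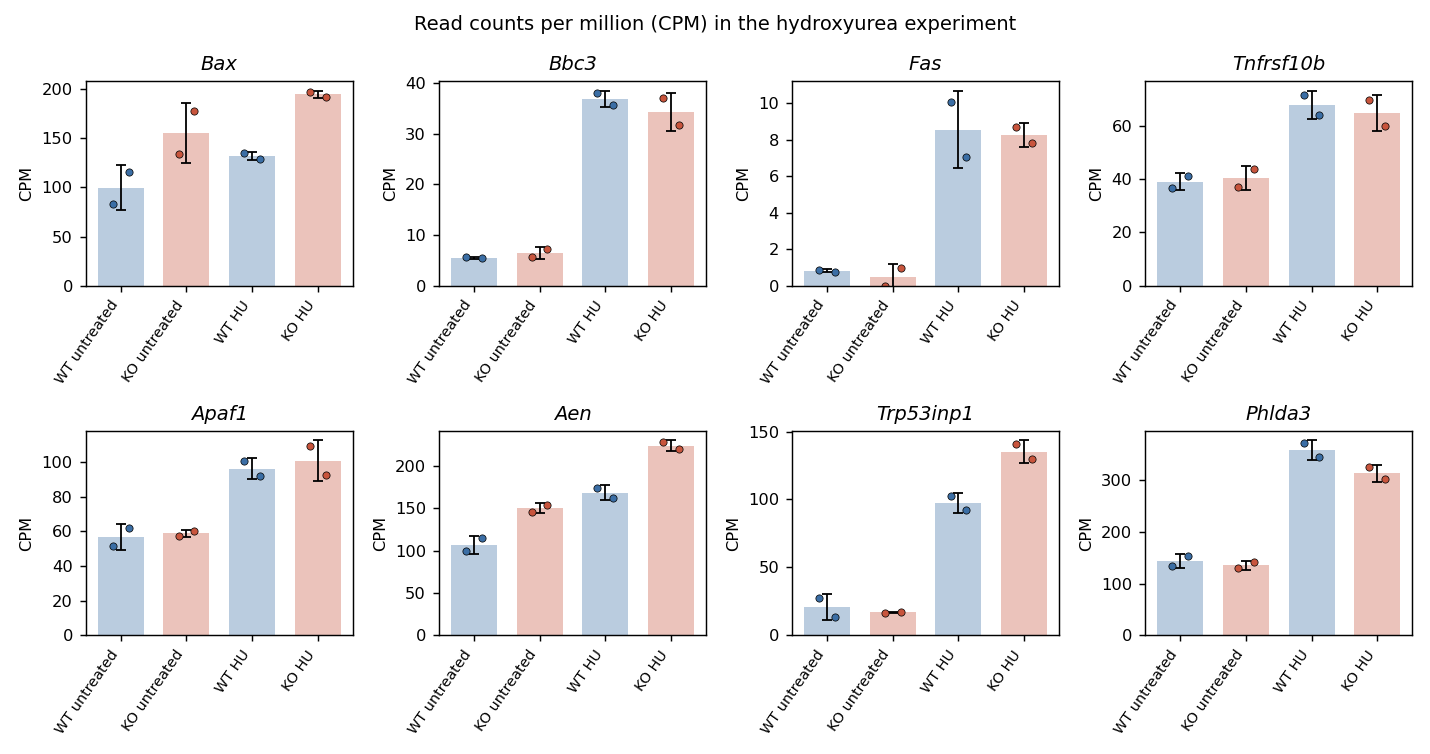
CPM of each gene in the HU experiment, with bars for the mean of 2 libraries, error bars for the SD and points for libraries. Every HU library lies above the untreated libraries of its genotype, while Bax and Aen also stand higher in KO than in WT libraries.

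Among the Bcl2 family genes, Bbc3 had the larger response. Bbc3 was 5.61 and 5.35 CPM in WT untreated and 38.0 and 35.7 CPM in WT HU libraries, and 5.59 and 7.22 CPM in KO untreated and 36.9 and 31.6 CPM in KO HU libraries. All 4 HU libraries of Bbc3 thus lay far above every untreated one. The log2 fold change of Bbc3 was 2.73 (SE 0.33, adjusted p 1.89e-09) in WT and 2.39 (SE 0.32, adjusted p 3.04e-08) in KO cells. Bax was 83.4 and 116 CPM in WT untreated and 135 and 129 CPM in WT HU libraries, and 134 and 178 CPM in KO untreated and 197 and 192 CPM in KO HU libraries. Its untreated libraries differed from each other more than its HU libraries did. The log2 fold change of Bax was 0.39 (SE 0.14, adjusted p 0.0722) in WT and 0.31 (SE 0.13, adjusted p 0.182) in KO cells. With a library left out at a time, the log2 fold change of Bax ranged from 0.17 to 0.63 in WT and from 0.14 to 0.52 in KO cells. The highest values were those without WT untreated replicate 2 and without KO untreated replicate 2. With the replicate number as a block Bax was called in WT cells (0.40, adjusted p 0.0307), though the numbers were not shown to pair the libraries.

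The death receptors rose by unequal amounts. Fas counts were 2 and 2 in WT untreated, 31 and 20 in WT HU, 0 and 3 in KO untreated, and 25 and 20 in KO HU libraries. Fas was thus near the limit of detection without HU, and the upper end of its ratio is wide. The ratio of its summed counts per summed library totals, HU over untreated, was 10.6 in WT cells (95% interval 3.91 to 40.5) and 15.3 in KO cells (4.92 to 77.1). As 71.9% of the counts from 1 to 50 in this experiment were even, the ratio was also taken with counts divided by 2, at 10.8 in WT (2.71 to 94.2) and 11.7 in KO cells (2.90 to 103). These intervals cover counting error only. The adjusted p of Fas was 0.00231 in WT and 0.000929 in KO cells. Tnfrsf10b, the mouse receptor of the ligand Trail, was 36.7 and 41.3 CPM in WT untreated, 71.7 and 64.2 CPM in WT HU, 37.1 and 43.7 CPM in KO untreated, and 69.6 and 60.1 CPM in KO HU libraries. HU and untreated libraries of Tnfrsf10b stood apart in both genotypes. Its log2 fold change was 0.79 (SE 0.19, adjusted p 0.0025) in WT and 0.67 (SE 0.19, adjusted p 0.0155) in KO cells. Without WT HU replicate 1 the WT calls of Fas (adjusted p 0.0522) and Tnfrsf10b (log2 fold change 0.71, adjusted p 0.0727) were lost. Without KO untreated replicate 1 or KO HU replicate 1 the KO call of Tnfrsf10b was lost (0.58, adjusted p 0.149, and 0.56, adjusted p 0.251).

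Apaf1 was 51.4 and 61.9 CPM in WT untreated, 101 and 91.8 CPM in WT HU, 57.5 and 60.4 CPM in KO untreated, and 109 and 92.5 CPM in KO HU libraries. Its log2 fold change was 0.75 (SE 0.16, adjusted p 0.000687) in WT and 0.77 (SE 0.16, adjusted p 0.00054) in KO cells. The KO call of Apaf1 was lost without KO HU replicate 1 (0.64, adjusted p 0.0622). Of the remaining genes, Trp53inp1 rose most. Trp53inp1 was 27.6 and 13.8 CPM in WT untreated, 103 and 92.5 CPM in WT HU, 16.8 and 17.1 CPM in KO untreated, and 141 and 130 CPM in KO HU libraries. Its log2 fold change was 2.25 (SE 0.21, adjusted p 1.11e-13) in WT and 2.99 (SE 0.20, adjusted p 4.38e-19) in KO cells. The untreated WT libraries of Trp53inp1 differed by more than those of KO, and every HU library lay above every untreated one. Phlda3 was 134 and 153 CPM in WT untreated, 371 and 345 CPM in WT HU, 129 and 141 CPM in KO untreated, and 325 and 302 CPM in KO HU libraries, with a log2 fold change of 1.31 (SE 0.12, adjusted p 4.89e-14) in WT and 1.20 (SE 0.12, adjusted p 1.53e-12) in KO cells. Aen was 98.9 and 114 CPM in WT untreated, 174 and 162 CPM in WT HU, 146 and 154 CPM in KO untreated, and 228 and 220 CPM in KO HU libraries. The log2 fold change of Aen was 0.64 (SE 0.13, adjusted p 0.000187) in WT and 0.57 (SE 0.12, adjusted p 0.000727) in KO cells. Phlda3 and Aen showed no overlap between treatments, and HU left Phlda3 with the highest RPKM of the 8 genes in both genotypes.

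**Figure D3:**
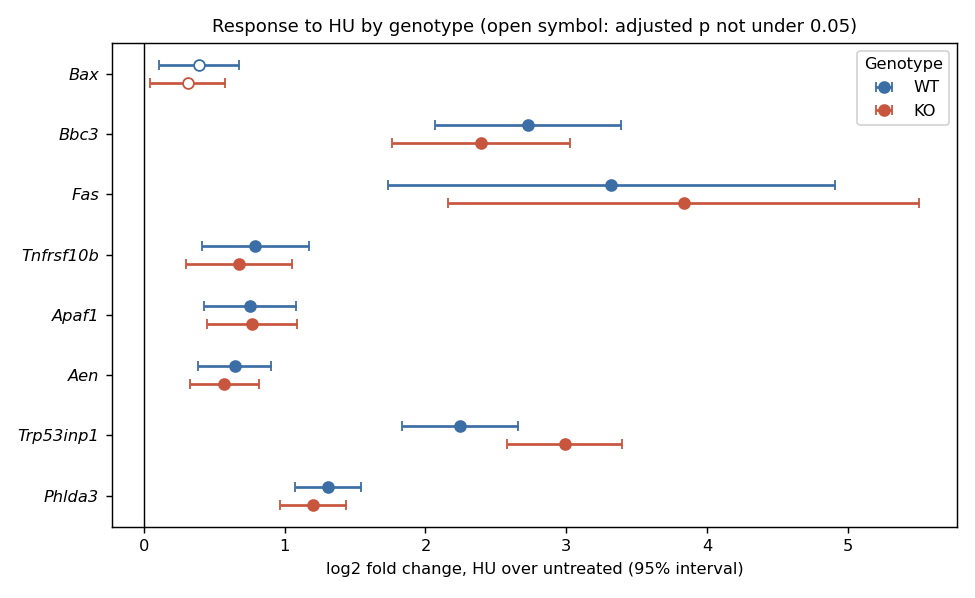
Fitted log2 fold change of HU over untreated cells for each gene in WT and KO cells, with the 95% interval from edgeR's fit. Filled symbols had an adjusted p below 0.05 and open symbols, those of Bax, did not.

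The response to HU was compared between the genotypes directly. By edgeR, 0 of the 8 genes were called for a difference between the KO and WT responses (1 had an unadjusted p below 0.05, and DESeq2 called 0), beside 0.0714% of all genes. The difference in log2 fold change, KO minus WT, was 0.74 for Trp53inp1 (95% interval 0.14 to 1.35, adjusted p 0.833), -0.33 for Bbc3 (-1.30 to 0.64), -0.10 for Phlda3 (-0.44 to 0.23), -0.08 for Bax (-0.47 to 0.31) and 0.02 for Apaf1 (-0.44 to 0.48). For Aen it was -0.07 (-0.43 to 0.28), for Tnfrsf10b -0.12 (-0.65 to 0.42) and for Fas 0.51 (-2.17 to 3.20). These intervals leave room for a difference of either sign in 7 of the 8 genes, widest in Fas. The value of Trp53inp1 was 0.18 without WT untreated replicate 1 and 1.20 without WT untreated replicate 2.

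Other genes that p53 is known to induce were described from a fixed list. Of 22 listed p53 targets outside the 8 genes, 15 rose in WT and 15 in KO cells, and 0 fell in either. Cdkn1a, the p21 inhibitor of the cell cycle, had a log2 fold change of 3.16 (adjusted p 3.14e-30) in WT and 2.63 (5.82e-28) in KO cells. Btg2, an antiproliferative gene, had 2.79 (2.89e-18) and 3.20 (2.01e-21), Gadd45a had 2.69 (9.13e-12) and 3.05 (2.87e-12), and Ccng1 had 0.88 (2.74e-10) and 1.03 (1.45e-12). In the list of p53 and its control 4 of 6 rose in WT and 3 of 6 in KO cells. Mdm2, the ubiquitin ligase of p53, had 2.81 (4.4e-31) and 2.91 (3.24e-32), Ppm1d, a phosphatase of the damage response, had 0.75 (0.0268) and 0.96 (0.00339), and Trp53 itself had 0.00 (0.994) and -0.02 (0.971). The list medians were 1.14 and 1.08 for the targets, against 0 and -0.01 for all genes. The machinery that these effectors engage was described from lists as well, beside the 9.83% of all genes called in WT and 6.45% in KO cells. Of 18 mitochondrial death genes, 0 rose and 3 fell in WT cells, among them Casp6 (-0.90, adjusted p 0.0118) and Bcl2 (-0.68, 0.0370). In KO cells edgeR called 0 of the 18 (4 at an unadjusted p below 0.05). Casp9, the caspase that Apaf1 activates, had 0.22 (0.817) in WT and 0.43 (0.694) in KO cells, and Cycs had -0.22 (0.275) and -0.08 (0.808). Of 6 genes of death receptor signalling, Tnfrsf1a rose in WT cells (0.52, 0.0306) and Tradd fell in KO cells (-1.55, 0.0230). Fadd had -0.23 (0.726) and 0.21 (0.812), and Casp8 had -0.16 (0.696) and 0.23 (0.621). Tradd rested on 10.0 and 21.0 CPM in KO untreated libraries, which lay far apart, and 4.18 and 6.63 CPM in KO HU libraries.

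KO cells were then compared with WT cells within a treatment, at the threshold of 0.01 used for genotypes. Untreated, 2 of the 8 genes were called, Bax and Aen, both higher in KO, beside 5.58% of all genes and 3.07% called higher. With HU, again 2 of 8 were called, Bax and Aen, beside 6.04% of all genes and 3.27% called higher. The log2 difference of Bax was 0.69 (SE 0.14, adjusted p 0.000387) untreated and 0.61 (SE 0.13, adjusted p 0.000924) with HU, and that of Aen was 0.54 (SE 0.13, adjusted p 0.00309) and 0.46 (SE 0.12, adjusted p 0.00619). Both genes had every KO library above every WT library of the same treatment, a pattern whose share over all genes was not computed. Trp53inp1 had -0.23 (adjusted p 0.649) untreated and 0.52 (adjusted p 0.0291) with HU, short of the threshold. The median of the 8 genes was 0.10 untreated and 0.05 with HU. The untreated calls were lost in some fits with a library left out, and the HU calls in every such fit. Such a fit leaves a lone library in a group, so a lost call does not show that the omitted library carried it. Untreated, 0 of the 8 genes were called without WT untreated replicate 1 (Bax 0.48, adjusted p 0.0479, and Aen 0.44, adjusted p 0.0571) or without KO untreated replicate 2 (Bax 0.47, adjusted p 0.0682, and Aen 0.50, adjusted p 0.0305). With HU, leaving out any one library left 0 called, with log2 differences from 0.58 to 0.64 for Bax and from 0.41 to 0.52 for Aen.

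Other genes of the pathway were compared in the same way. Trp53 was higher in KO cells, by 0.59 (adjusted p 0.000241) untreated and 0.58 (0.000268) with HU, and Bcl2l1, which restrains Bax, by 0.70 (0.000116) and 0.55 (0.00233). Cdkn1a was higher untreated (0.79, 3.71e-05), Mdm2 with HU (0.37, 0.00646), Siva1 was lower untreated (-0.87, 0.00508), and Ddit4 lower with HU (-0.54, 0.00751). Of the 22 targets outside the members, 2 were called untreated and 1 with HU, beside 5.58% and 6.04% of all genes. The summed fibroblast markers, over the 3 listed, ranged from 60.02 to 65.2 CPM in WT untreated and from 7.88 to 11.98 CPM in KO untreated libraries, and from 58.6 to 62.3 and 10.9 to 13.6 CPM with HU. Of the 3, only Col3a1 was called, at log2 differences of -4.76 (adjusted p 5.87e-14) untreated and -5.51 (2.46e-14) with HU. The part of these markers in the differences of Bax and Aen was not tested. In these bulk libraries, fewer cells of a type and less RNA per cell cannot be told apart.

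**Figure D4:**
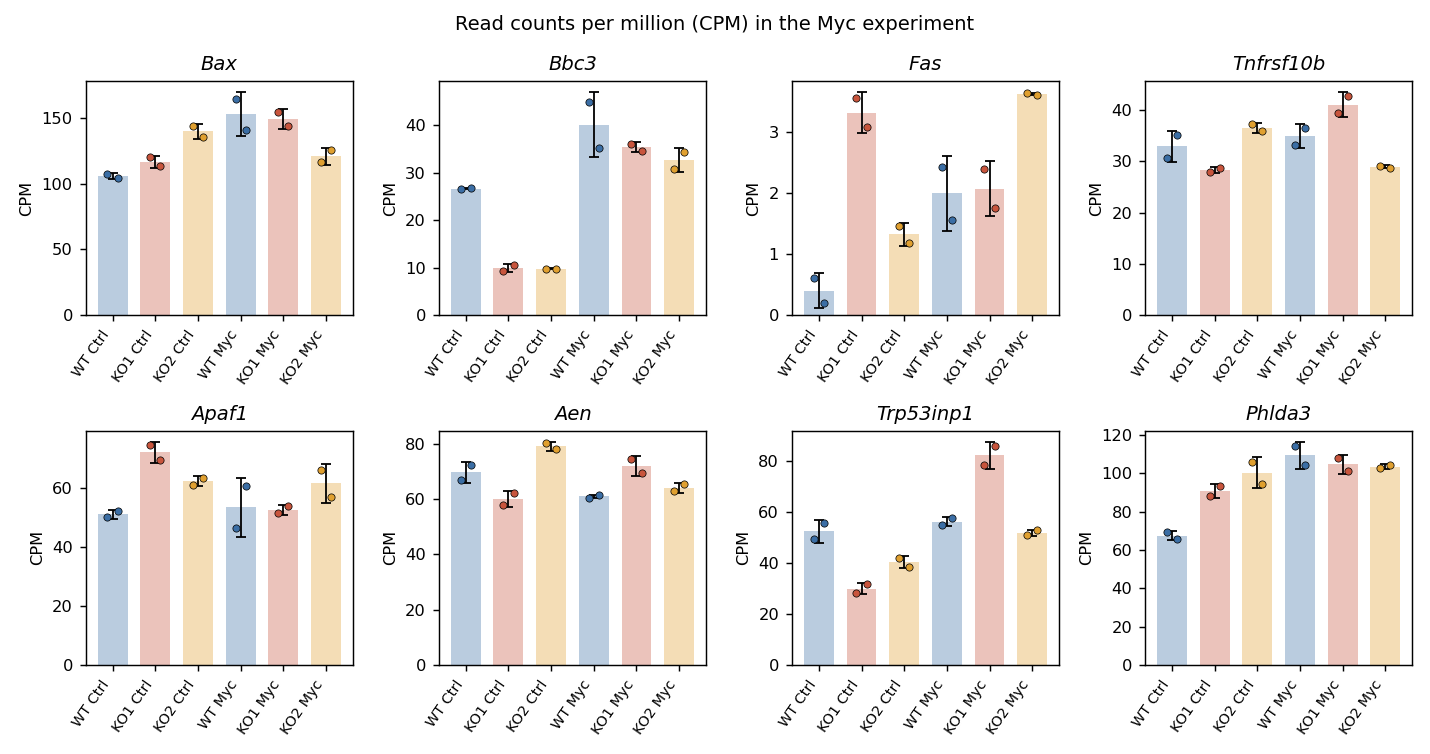
CPM of each gene in the Myc experiment, with bars for the mean of 2 libraries, error bars for the SD and points for libraries. The 4 KO Ctrl libraries of Bbc3 lie between 9.30 and 10.6 CPM, below all other groups, while Fas spans the widest ratio and the lowest counts.

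With the Ctrl vector, Bbc3 and Trp53inp1 were lower, and Fas and Phlda3 higher, in each KO line than in WT cells. In KO1 7 of the 8 genes were called against WT (3 higher and 4 lower), beside 52.2% of all genes (25.5% higher and 26.7% lower), and in KO2 5 of 8 were (3 higher and 2 lower), beside 49.9% (23.3% higher and 26.6% lower). As about as many of all genes were called as not, these counts describe the members and do not set them apart. The lines share the same WT Ctrl libraries, so their values stand side by side without a test of likeness. The median log2 difference of the members was -0.09 in KO1 and 0.15 in KO2, against 0.00 and -0.01 for all genes.

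Bbc3 was 26.5 and 26.7 CPM in WT Ctrl, 9.30 and 10.6 CPM in KO1 Ctrl, and 9.81 and 9.65 CPM in KO2 Ctrl libraries. Neither line overlapped WT, and the lines overlapped each other. In the HU experiment the log2 difference of Bbc3 between untreated KO and WT cells was 0.28 (95% interval -0.55 to 1.11, adjusted p 0.741), and the difference between the experiments was not tested. With the Ctrl vector the log2 difference of Bbc3 from WT was -1.47 (SE 0.13, adjusted p 4.2e-08) in KO1 and -1.53 (SE 0.13, adjusted p 3.33e-08) in KO2. Trp53inp1 was 49.1 and 55.4 CPM in WT Ctrl, 28.3 and 31.5 CPM in KO1 Ctrl, and 41.8 and 38.5 CPM in KO2 Ctrl libraries, with log2 differences of -0.86 (SE 0.08, adjusted p 1.94e-07) and -0.46 (SE 0.08, adjusted p 0.000124). Phlda3 was 69.1 and 65.8 CPM in WT Ctrl, 87.9 and 93.2 CPM in KO1 Ctrl, and 106 and 94.6 CPM in KO2 Ctrl libraries. Its log2 difference was 0.37 (SE 0.07, adjusted p 0.000314) in KO1 and 0.49 (SE 0.07, adjusted p 2.18e-05) in KO2. Both of these genes separated each line from WT without overlap. The share of all genes without overlap was not computed for these comparisons, so the separations, that of Bbc3 included, do not set the genes apart.

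The WT Ctrl libraries held 9 and 3 counts of Fas, the KO1 Ctrl libraries 54 and 47, and the KO2 Ctrl libraries 22 and 18. The receptor was rare in WT cells, where its libraries lay far apart, and counted more often in both lines. Its log2 difference was 2.98 (SE 0.39, adjusted p 4.78e-06) in KO1 and 1.63 (SE 0.48, adjusted p 0.00731) in KO2. The size of both turned on the WT libraries, at 3.97 and 2.62 without WT Ctrl replicate 1, and at 2.38 for KO1 without WT Ctrl replicate 2. The KO2 call of Fas was lost without WT Ctrl replicate 2 (1.03, adjusted p 0.106), KO2 Ctrl replicate 1 (1.47, 0.0479) or KO2 Ctrl replicate 2 (1.77, 0.0158). The summed fibroblast markers, over the 5 listed, were 180 to 181 CPM in WT Ctrl, 716 to 789 CPM in KO1 Ctrl and 183 to 201 CPM in KO2 Ctrl libraries. The near equal sums of WT and KO2 hide moves in both directions. In KO2, 2 of the 5 were called higher, among them Col3a1 (2.82, adjusted p 1.22e-10), and 2 lower, among them Col1a2 (-3.03, adjusted p 4.21e-14), whereas in KO1 3 were called higher and 0 lower. Their part in the level of Fas was not tested.

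Bax was 107 and 104 CPM in WT Ctrl, 120 and 113 CPM in KO1 Ctrl, and 144 and 136 CPM in KO2 Ctrl libraries. It was called in KO2 (0.32, SE 0.08, adjusted p 0.00182) but not in KO1 (0.09, adjusted p 0.337), and the KO2 call was lost without WT Ctrl replicate 1 (0.34, 0.0106), WT Ctrl replicate 2 (0.30, 0.0222) or KO2 Ctrl replicate 1 (0.27, 0.0263). The apoptosome gene Apaf1 was 50.1 and 52.3 CPM in WT Ctrl, 74.7 and 69.6 CPM in KO1 Ctrl, and 61.1 and 63.5 CPM in KO2 Ctrl libraries. It was called in KO1 (0.44, SE 0.10, adjusted p 0.00113) and not in KO2 (0.20, adjusted p 0.0978), and the KO1 call was lost without WT Ctrl replicate 1 (0.41, 0.0163) or KO1 Ctrl replicate 1 (0.38, 0.0182). Tnfrsf10b and Aen were lower in KO1 by small steps, at log2 differences of -0.27 (adjusted p 0.00992) and -0.27 (adjusted p 0.00262). In KO2 they had 0.07 (adjusted p 0.489) and 0.10 (adjusted p 0.206). The KO1 call of Tnfrsf10b was lost without WT Ctrl replicate 2 (-0.17, 0.154), KO1 Ctrl replicate 1 (-0.26, 0.0586) or KO1 Ctrl replicate 2 (-0.29, 0.0362), and that of Aen without WT Ctrl replicate 2 (-0.21, 0.0445) or KO1 Ctrl replicate 1 (-0.22, 0.0401). With KO1 Ctrl replicate 1 left out, 4 of the 8 genes remained past the threshold in KO1. In KO2, 3 did without WT Ctrl replicate 2 or without KO2 Ctrl replicate 1.

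Around the members, the p53 targets moved in both directions. Of 23 listed outside the members, 8 rose and 11 fell in KO1, and 8 rose and 9 fell in KO2, beside the 52.2% and 49.9% of all genes called in these comparisons. Pidd1, a death domain scaffold, had log2 differences of 1.61 (adjusted p 8.62e-07) and 1.81 (1.99e-07), Btg2 had 1.34 (5.74e-10) in KO1, and Eda2r, a receptor of the TNF family, had 1.32 (1.03e-07) in KO2. In KO1 Eda2r lay below WT instead, and it was called between the lines. The stress genes Sesn2 and Gadd45a fell, at -2.67 (1.27e-12) and -2.15 (2.2e-09) in KO1 and -2.08 (1.91e-11) and -2.58 (5.35e-10) in KO2. Cdkn1a fell by 1.30 on the log2 scale in KO1 and by 0.95 in KO2, and Mdm2 by 0.41 and 0.27, whereas Trp53 had 0.10 (0.121) and 0.17 (0.0118). Of 19 mitochondrial death genes, 6 rose and 7 fell in KO1, and 3 rose and 5 fell in KO2, beside the same shares of all genes. Bcl2l1 fell by 1.12 on the log2 scale in KO1 and by 0.99 in KO2, Casp6 had 1.01 and 0.81, and Bok had 0.92 and 0.85. In untreated cells of the HU experiment Bcl2l1 and Cdkn1a were instead higher in KO (0.70, adjusted p 0.000116, and 0.79, 3.71e-05). The difference between the experiments was not tested.

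**Figure D5:**
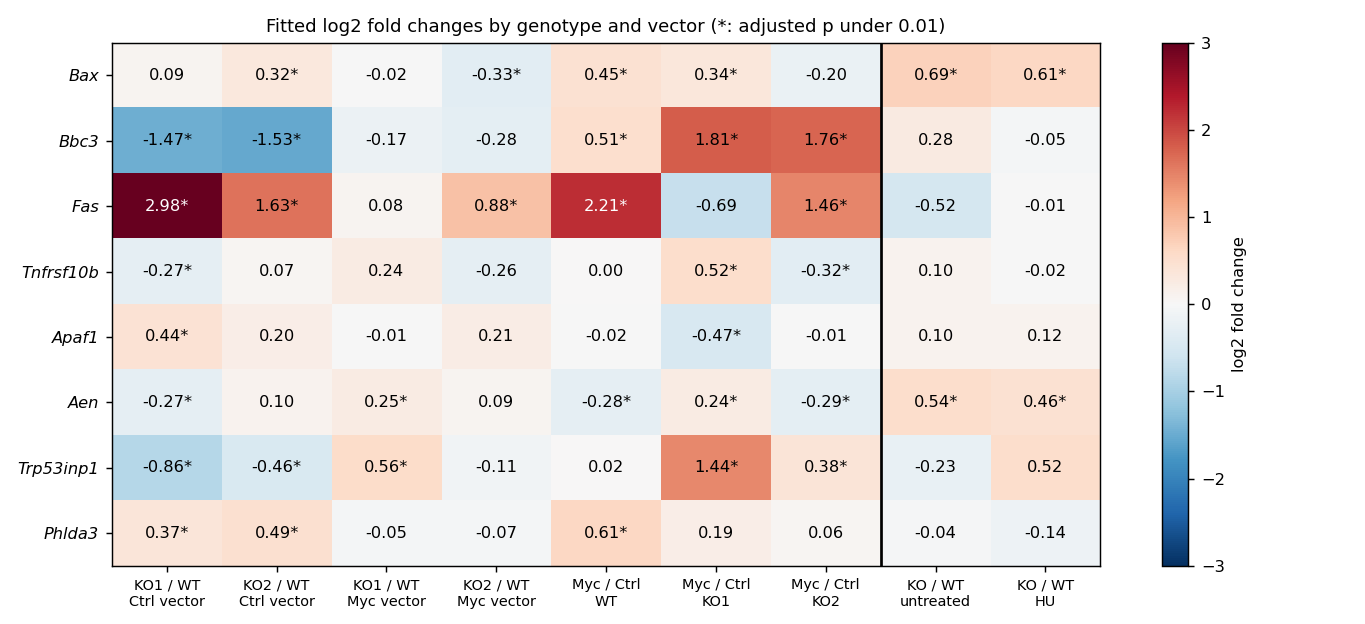
Fitted log2 fold changes of each gene in the genotype and vector comparisons, with the HU experiment to the right of the line. An asterisk marks an adjusted p below 0.01. Bbc3 is marked as lower in both KO lines with the Ctrl vector and as higher with the Myc vector in each genotype.

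The lines were also compared with each other, with the Ctrl vector, to see how far a genotype effect varied between them. Of the 8 genes, 4 were called between KO1 and KO2, beside 18.3% of all genes. Fas was higher in KO1 (log2 difference 1.35, SE 0.29, adjusted p 0.0023), and Tnfrsf10b (-0.34, adjusted p 0.00543), Aen (-0.37, adjusted p 0.00056) and Trp53inp1 (-0.40, adjusted p 0.00229) were lower. Bbc3 had 0.06 (95% interval -0.26 to 0.37, adjusted p 0.805). The 4 calls were lost without KO1 Ctrl replicate 1 or without KO2 Ctrl replicate 1, when the log2 difference of Fas was 1.24 and 1.51. Without KO2 Ctrl replicate 2, 2 genes stayed past the threshold, and the call of Fas was lost (1.21, adjusted p 0.0332), as was that of Tnfrsf10b (-0.37, 0.0231). Tnfrsf10b alone was lost without KO1 Ctrl replicate 2 (-0.36, 0.0317).

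With the Myc vector the libraries labelled KO were compared with those labelled WT, where fewer of all genes were called than with the Ctrl vector. For KO1, 2 of 8 were called, Aen (log2 difference 0.25, SE 0.07, adjusted p 0.00756) and Trp53inp1 (0.56, SE 0.08, adjusted p 2.98e-05), beside 25.1% of all genes. For KO2, 2 of 8 were called, Bax (-0.33, SE 0.07, adjusted p 0.00191) and Fas (0.88, SE 0.25, adjusted p 0.00944), beside 35.2%. Bbc3, low in both lines with the Ctrl vector, was 44.9 and 35.3 CPM in WT Myc, 36.1 and 34.6 CPM in KO1 Myc, and 30.8 and 34.4 CPM in KO2 Myc libraries. Its KO1 libraries overlapped WT at the lower WT value, with a log2 difference of -0.17 (adjusted p 0.195), and its KO2 libraries did not, with -0.28 (adjusted p 0.0272). Bbc3 was called in KO1 without WT Myc replicate 2 (-0.34, adjusted p 0.0028) and in KO2 without it (-0.46, adjusted p 0.000129). Trp53inp1 was 54.8 and 57.4 CPM in WT Myc, 78.4 and 85.8 CPM in KO1 Myc, and 50.8 and 52.6 CPM in KO2 Myc libraries, so that KO1 stood apart. The call of Aen in KO1 was lost without WT Myc replicate 1 (0.25, 0.0168), KO1 Myc replicate 1 (0.22, 0.0589) or KO1 Myc replicate 2 (0.31, 0.0114). Tnfrsf10b passed in KO1 without WT Myc replicate 2 (0.31, 0.00828), when 4 members were called. In KO2, Bax was lost without WT Myc replicate 1 (-0.20, 0.0177), and Fas without WT Myc replicate 2 (0.58, 0.0948) or KO2 Myc replicate 2 (0.89, 0.0351). Without KO2 Myc replicate 1 both were lost (Bax -0.27, 0.0303, and Fas 0.88, 0.0383), leaving 0 members called. Tnfrsf10b passed in KO2 without WT Myc replicate 1 (-0.32, 0.00654), and Apaf1 without WT Myc replicate 2 (0.41, 0.000397). Against WT Myc libraries at 214 to 232 CPM, the summed fibroblast markers were 107 to 117 CPM in KO1 Myc and 725 to 738 CPM in KO2 Myc. In KO1 1 of the 5 was called higher and 3 lower, among them Col1a2 (-4.98, adjusted p 1.15e-15), and in KO2 3 were called higher and 1 lower. Their part in these differences was not tested.

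The Myc vector was compared with the Ctrl vector within each genotype. In WT cells 5 of 8 genes were called (4 higher and 1 lower), beside 44.3% of all genes (21.6% higher and 22.7% lower). In KO1 6 of 8 were (5 higher and 1 lower), beside 36.1% (17.9% higher and 18.2% lower), and in KO2 5 of 8 (3 higher and 2 lower), beside 38.8% (20.2% higher and 18.6% lower). The members had a median log2 fold change of 0.23 with WT, 0.29 with KO1 and 0.03 with KO2 cells, against 0.01, 0.01 and 0.02 for all genes. Bbc3 was the one member that rose in all 3 genotypes, with log2 fold changes of 0.51 (SE 0.10, adjusted p 0.000619) in WT, 1.81 (SE 0.12, adjusted p 5.84e-09) in KO1 and 1.76 (SE 0.12, adjusted p 8.38e-09) in KO2. Its lowest library with the Myc vector, at 30.8 CPM, lay above its highest with the Ctrl vector, at 26.7 CPM. The share of all genes with such a separation was not computed, so it does not set Bbc3 apart. The summed fibroblast markers were 716 to 789 CPM in KO1 Ctrl libraries and 107 to 117 CPM in KO1 Myc. In KO2 they were 183 to 201 CPM with Ctrl and 725 to 738 CPM with Myc, near those of KO1 Ctrl. Their part in these results was not tested, nor whether each label names the same line with both vectors.

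Trp53inp1 rose in KO1 (1.44, SE 0.08, adjusted p 8.65e-10) and in KO2 (0.38, adjusted p 0.00102), and had 0.02 (adjusted p 0.85) in WT cells. With the Myc vector, WT libraries held 37 and 26 counts of Fas, KO1 libraries 41 and 28, and KO2 libraries 61 and 65. Fas rose in WT (2.21, SE 0.43, adjusted p 0.000393, and 3.20 without WT Ctrl replicate 1) and in KO2 (1.46, SE 0.28, adjusted p 0.000428) and had -0.69 (adjusted p 0.0377) in KO1. Bax was 164 and 141 CPM in WT Myc, 155 and 144 CPM in KO1 Myc, and 116 and 125 CPM in KO2 Myc libraries. It rose in WT (0.45, adjusted p 0.000115) and KO1 (0.34, adjusted p 0.00156) and had -0.20 (adjusted p 0.0369) in KO2. Phlda3 rose in WT cells (0.61, SE 0.07, adjusted p 2.79e-06), from a lower level than in the lines, and had 0.19 (adjusted p 0.0352) in KO1 and 0.06 (adjusted p 0.525) in KO2. Aen fell in WT (-0.28, adjusted p 0.00247) and KO2 (-0.29, adjusted p 0.00167) and rose in KO1 (0.24, adjusted p 0.00689). Tnfrsf10b rose in KO1 (0.52, adjusted p 7.28e-05), fell in KO2 (-0.32, adjusted p 0.00351) and had 0.00 (adjusted p 0.982) in WT. Apaf1 fell in KO1 (-0.47, adjusted p 0.000924), and had -0.02 (adjusted p 0.901) in WT and -0.01 (adjusted p 0.965) in KO2. Directions that differ between KO1 and KO2 here take each label to name the same line with both vectors, which was not tested.

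Several of the smaller calls were lost in fits with a library left out. Such a fit leaves a lone library in a group, so a lost call does not show that the omitted library carried it. In WT cells Fas (1.61, 0.0126) and Aen (-0.22, 0.0442) were lost without WT Ctrl replicate 2, leaving 3 members. In KO1, Bax (0.30, 0.0198), Aen (0.21, 0.0619) and Apaf1 (-0.43, 0.0140) were lost without KO1 Myc replicate 1, leaving 3, Aen (0.20, 0.0828) and Apaf1 (-0.42, 0.0171) without KO1 Ctrl replicate 1, and Bax (0.29, 0.0281) and Aen (0.29, 0.0165) without KO1 Ctrl replicate 2. In KO2, each single omission left 3 members. Tnfrsf10b was lost in all 4 (from -0.35 to -0.30), Aen without KO2 Ctrl replicate 1 (-0.27, 0.0208) or KO2 Myc replicate 1 (-0.26, 0.0191), and Trp53inp1 without KO2 Ctrl replicate 2 (0.32, 0.0224) or KO2 Myc replicate 2 (0.35, 0.0122). The calls of Bbc3 held in every such fit in the 3 genotypes.

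Whether the vector acted differently by genotype was tested with an interaction term. That term takes KO1 and KO2 to name the same lines with both vectors, which was not tested. Between KO1 and WT, 6 of 8 members were called, beside 37.3% of all genes, and between KO2 and WT, 3 of 8 were, beside 32.8%. Bbc3 rose more in both lines, by a difference of 1.31 on the log2 scale (SE 0.16, adjusted p 6.23e-06) in KO1 and 1.25 (SE 0.16, adjusted p 1.23e-05) in KO2. The interaction term is also the log2 difference from WT with the Myc vector less that with the Ctrl vector. For Bbc3 these differences were -0.17 and -1.47 in KO1, and -0.28 and -1.53 in KO2. Trp53inp1 rose more in KO1 (1.42, SE 0.11, adjusted p 4.87e-08). Fas differed in the other direction in KO1 (-2.90, SE 0.50, adjusted p 0.000176), from -3.90 without WT Ctrl replicate 1 to -2.30 without WT Ctrl replicate 2, as did Phlda3 in KO1 (-0.42, adjusted p 0.00233) and KO2 (-0.56, adjusted p 0.000279). Tnfrsf10b (0.52, adjusted p 0.00157) and Aen (0.52, adjusted p 0.000288) rose more in KO1, and Bax less in KO2 (-0.64, SE 0.11, adjusted p 0.000134). The KO1 call of Tnfrsf10b was lost without WT Ctrl replicate 2 (0.41, 0.0152), and that of Phlda3 without WT Ctrl replicate 2 (-0.39, 0.0164), KO1 Ctrl replicate 2 (-0.39, 0.0150) or KO1 Myc replicate 2 (-0.37, 0.0149). Apaf1 passed in KO1 without WT Myc replicate 1 (-0.63, 4.15e-05), Tnfrsf10b in KO2 without it (-0.39, 0.00913), and Trp53inp1 in KO2 without WT Ctrl replicate 1 (0.44, 0.00929) or WT Myc replicate 2 (0.39, 0.00775). Myc RNA itself rose more in the lines than in WT cells, by 1.66 (adjusted p 1.45e-10) in KO1 and 1.09 (adjusted p 1.87e-08) in KO2, and its part in these differences was not tested. Trim33 also differed in KO1 (1.39, adjusted p 1.12e-08), which carries the doubt over the labels of these groups into each of these values.

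The members were last compared with all 11160 other genes shared by the tables for likeness of pattern over the 10 group means, each table centred on its own mean. For the 3 members with the widest range, the genes nearest to Fas were Gadd45b (root mean square difference 0.462 in log2 CPM) and Btg2 (0.484). Mdm2 was nearest to Trp53inp1 (0.295), and those nearest to Bbc3 were Jdp2 (0.252) and Arid5a (0.257).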

How the data were processed

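RNA was sequenced from 20 libraries, 12 of the Myc experiment and 8 of the HU experiment. According to the methods and the submitters' processing notes, reads were mapped to mm9 with STAR (2.5.4) and tested with edgeR (3.26.8), and the counting tool and its use of strand are not given in the sources used here, so that reads of overlapping antisense genes cannot be told apart. The authors deposited whole-number counts per gene for each experiment. The table of the Myc experiment is named as normalised, but its values are whole numbers with unequal totals and were used as counts. Of counts from 1 to 50 in the HU experiment, 71.9% were even, against 48.4% in the Myc experiment, so a variant with counts divided by 2 was run. Tables of the authors' own comparisons, which hold fold changes and p-values, were not used.

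Each experiment was fitted alone in edgeR (4.0.16, R 4.3.3) with TMM scaling, filterByExpr, which removed 0 genes, and 1 coefficient per group, by the quasi-likelihood test with Benjamini-Hochberg adjustment over all genes. The threshold was 0.05 for HU and for the difference in its effect, and 0.01 for genotypes and vectors. The biological coefficient of variation was 0.0498 (Myc experiment) and 0.102 (HU experiment). CPM used library totals, and RPKM used these and GENCODE vM1 exon lengths. Scaling by totals in place of TMM shifted the median of all genes by -0.0937 to 0.0827 (log2). Ratios of low counts carry exact 95% intervals for counting error only. Scripts were tested on simulated data.

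The members and lists were chosen with earlier results of these data known. Named genes were all listed members, Trim33 and Myc, Trp53, Mdm2, Cdkn1a, Ccng1, the direct partners Fadd, Casp8, Casp9 and Cycs, and from each list at most the 2 called genes that rose most and the 2 that fell most. Some genes that this rule names are not reported here. Likeness was the root mean square difference over 10 group means for the 3 members of widest range. Alternatives were DESeq2 (1.42.0), other scalings, filters, call rules and samples in the fit, a replicate block and each library left out.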

Additional observations from a re-analysis of the deposited data

Results flagged for a closer look

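Members whose response to the Myc vector differed between a KO line and WT cells, by the interaction term of edgeR's quasi-likelihood test, were singled out. In KO1 the difference in log2 fold change, KO1 minus WT, was 1.42 for Trp53inp1 (adjusted p 4.87e-08), 1.31 for Bbc3 (6.23e-06), 0.52 for Aen (0.000288), 0.52 for Tnfrsf10b (0.00157), -0.42 for Phlda3 (0.00233) and -2.90 for Fas (0.000176). In KO2 it was 1.25 for Bbc3 (1.23e-05), -0.56 for Phlda3 (0.000279) and -0.64 for Bax (0.000134). Both sets share the WT libraries. Each value is also the KO difference from WT with the Myc vector less that with the Ctrl vector, so it is not separate from those differences. Against the order with the Ctrl vector, Trim33 RNA was higher in KO1 Myc than in WT Myc libraries (log2 difference 0.40, adjusted p 0.000243), and its part in these differences was not tested. Nor was it tested whether KO1 and KO2 name the same lines with both vectors.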

How the results depend on the processing

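With 2 libraries a group, the lower depth of the HU experiment and Fas at 0 to 3 counts in its untreated libraries, small differences and the size of the Fas response are poorly fixed. The share of all genes called was not computed for the alternatives below. Counts of members under them describe the members alone. Requiring an absolute log2 fold change of at least 1 as well left 2 members called in KO1 and 2 in KO2 against WT with the Ctrl vector, 0 and 0 with the Myc vector, 1 for Myc against Ctrl in WT, 2 in KO1 and 2 in KO2, 1 for KO1 against KO2, 3 and 1 for the difference in the Myc effect in KO1 and KO2, 4 and 4 for HU in WT and KO, and 0 and 0 for KO against WT, untreated and with HU. Fitting the compared groups alone gave 1 member for KO1 and 0 for KO2 against WT with the Myc vector, and 1 for KO against WT untreated. The log2 difference of Apaf1 in KO1 with the Myc vector was then 0.0018. This fit lost Aen (adjusted p 0.0486) in KO1, and Bax (0.0233) and Fas (0.0208) in KO2 with the Myc vector, Aen for Myc against Ctrl in WT (0.0241) and Aen for KO against WT untreated (0.0130). It added Apaf1 in KO2 with the Ctrl vector (0.00352), Phlda3 and Bax for Myc against Ctrl in KO1 (0.00602) and KO2 (0.00315), Bax and Apaf1 for KO1 against KO2 (0.000151 and 0.00157) and Trp53inp1 for KO against WT with HU (0.000836). DESeq2 gave 1 and 1 with the Myc vector, 1 for KO against WT with HU, and a log2 fold change of -0.0096 for Tnfrsf10b, Myc against Ctrl in WT. It lost Tnfrsf10b in KO1 with the Ctrl vector (0.0292), between the lines (0.0122) and for HU in KO cells (0.0621), Aen in KO1 with the Myc vector (0.0168), for Myc against Ctrl in KO1 (0.0206) and for KO against WT with HU (0.0158), and Fas in KO2 with the Myc vector (0.0460). A minimum of 5 CPM left Fas untested, lost Tnfrsf10b in KO1 with the Ctrl vector (0.0189) and gave 1 member for KO2 with the Myc vector. Apaf1 then had log2 values of 0.0145 for Myc against Ctrl in WT and -0.0287 for the Myc effect in KO2. Library totals without TMM gave 1 member for KO against WT with HU, and log2 values of 0.0660 and -0.0836 for Apaf1 in the same comparisons. They lost Tnfrsf10b (0.0347) and Aen (0.0118) in KO1 with the Ctrl vector, and Aen for Myc against Ctrl in WT (0.0226) and for KO against WT with HU (0.0163), and added Apaf1 (-0.52, 0.00698) and Tnfrsf10b (-0.42, 0.00804) for the Myc effect in KO1 and KO2. The cause was not tested. Halving the counts left 7 of 8 members called for HU in both genotypes and added Trp53inp1 for KO against WT with HU (0.00841).

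Leaving out 1 library at a time, members called ranged from 4 to 6 (KO1) and 3 to 4 (KO2) against WT with the Ctrl vector, 1 to 4 and 0 to 3 with the Myc vector, 3 to 5 for Myc against Ctrl in WT cells (in KO1 3 to 6, in KO2 3), 0 to 3 for KO1 against KO2, 5 to 8 for HU in either genotype, 0 to 2 for KO against WT untreated and 0 with HU. The share of all genes called in these fits was not computed. Signs turned only among members not called, and the lone library of a group was then assumed to vary like the others. For KO2 with the Ctrl vector Tnfrsf10b ranged from -0.025 to 0.17. For KO1 with the Myc vector Bax ranged from -0.14 to 0.10, Bbc3 from -0.34 to 0.019, Fas from -0.22 to 0.42, Phlda3 from -0.12 to 0.0199 and Apaf1 from -0.19 to 0.19, and for KO2 Phlda3 from -0.14 to 0.0051. For Myc against Ctrl, Tnfrsf10b ranged from -0.091 to 0.10, Trp53inp1 from -0.065 to 0.11 and Apaf1 from -0.22 to 0.16 in WT, and Phlda3 from -0.023 to 0.14 and Apaf1 from -0.12 to 0.10 in KO2. Bbc3 ranged from -0.0304 to 0.14 for KO1 against KO2. For the difference in the Myc effect, Bax ranged from -0.22 to 0.0116 in KO1, and Aen from -0.075 to 0.042 and Apaf1 from -0.16 to 0.21 in KO2. For KO against WT untreated, Fas ranged from -4.19 to 0.29, Tnfrsf10b from -0.0251 to 0.19, Trp53inp1 from -0.68 to 0.34, Phlda3 from -0.13 to 0.0468 and Apaf1 from -0.0229 to 0.23, and with HU Bbc3 from -0.17 to 0.053, Fas from -0.23 to 0.27, Tnfrsf10b from -0.13 to 0.0835 and Apaf1 from -0.0114 to 0.23. For the difference in the HU effect, Bax ranged from -0.32 to 0.15, Fas from -0.29 to 4.20, Tnfrsf10b from -0.23 to 0.014, Aen from -0.16 to 0.0296 and Apaf1 from -0.11 to 0.15.

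Replicate numbers are shared between groups, but deviations of same-numbered libraries correlated only from -0.148 to 0.192, so the libraries were not taken as pairs. With the replicate number as a block, 8 members in place of 7 were called for HU in WT cells (Bax 0.40, adjusted p 0.0307), and no other call of a member changed. A crossed pairing of KO2 and WT with the Myc vector, chosen after seeing the data, called 3 members in place of 2.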
